A study of Homo sapiens with 12 samples.

Results

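TFAP2A and TFAP2C encode AP-2alpha and AP-2gamma, and their H3K27ac was read here as called ChIP-seq peaks in 3 human pancreatic ductal adenocarcinoma cell lines. The lines were Panc327, BxPC3 and SUIT2, all untreated, under standard culture, with 2 H3K27ac libraries and 2 input libraries each. Members were the called peaks that overlapped chromosome 6 from 10370000 to 10450000 (the TFAP2A window, 80 kb) or chromosome 20 from 55190000 to 55230000 (the TFAP2C window, 40 kb), with all peak positions on hg19. There were 47 of them among 190767 peaks in the 6 lists, 41 in the TFAP2A window and 6 in the TFAP2C window. The loci were selected on the presence, rank and width of called peaks in these same lists, so everything about called peaks is given as description with no test. With 2 libraries against 2, an exact two-sided permutation test could in any case not go below p = 0.333.

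AP-2 proteins bind DNA as dimers at GC-rich elements, classically GCCNNNGGC, and both activate and repress genes. AP-2alpha is known for its part in neural crest, face and epidermis, and AP-2gamma for its part in trophoblast, germ cells and breast epithelium, and both are known from epithelial tumours. Acetylation of lysine 27 on histone H3 marks promoters and enhancers in use, and a wide, unbroken stretch of it often lies over genes that give a cell its identity. TFAP2A also has antisense partners, TFAP2A-AS1 and TFAP2A-AS2, that share its locus.

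RefSeq gives TFAP2A promoter windows at a pair of alternative starts, and of the 2 genes TFAP2A alone was matched in that table. The 2 windows are shown because H3K27ac covered the locus in every library and the lines differed at its upstream side. They run from 250 bases before to 50 after each start on the minus strand, so TFAP2A is read toward lower positions and the first of them lies upstream of the second. Their positions are on GRCh38.p14, chr6:10419610-10419909 for the first and chr6:10412342-10412641 for the second, and were not carried over to hg19, so no peak was assigned to either start. Capitals mark TATAAA, the TATA box:

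TFAP2A upstream start: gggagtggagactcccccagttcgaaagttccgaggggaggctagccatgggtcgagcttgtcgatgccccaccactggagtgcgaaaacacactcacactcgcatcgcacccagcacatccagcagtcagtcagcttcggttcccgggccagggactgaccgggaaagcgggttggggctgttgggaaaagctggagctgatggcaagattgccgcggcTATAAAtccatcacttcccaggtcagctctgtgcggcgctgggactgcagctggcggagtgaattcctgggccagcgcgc

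TFAP2A downstream start: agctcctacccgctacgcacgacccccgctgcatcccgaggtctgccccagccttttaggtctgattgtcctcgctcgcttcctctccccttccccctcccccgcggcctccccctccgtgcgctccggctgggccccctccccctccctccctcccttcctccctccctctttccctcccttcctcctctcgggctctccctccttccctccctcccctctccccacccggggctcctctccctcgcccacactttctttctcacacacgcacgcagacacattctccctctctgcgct

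The upstream window held a TATAAA that begins at base 221 of the 300, 30 bases before the start. The downstream window held none. TATAAA on either strand was found in 11.5% of the 35116 promoter windows of the table. Neither TFAP2A window held GCCNNNGGC, which 23.2% of all windows had, or the GC box GGGCGG, which 45.0% had, both searched on both strands. GC content was 61.7% upstream and 68.0% downstream, above the median window at 58.7%. A match is a description of letters and not a bound site.

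Depth was not stated in the lists and was read from the peaks themselves. The caller's fold and −log10 p give the pile-up at the summit, in fragments, and the local background. MACS2 takes that background from the input where one is given, but whether the inputs were used is not given in the sources used here. Genome-wide background was 1.46 and 2.85 fragments in Panc327 replicates 1 and 2, 1.96 and 2.37 in BxPC3, and 3.29 and 3.61 in SUIT2. At that background the smallest called pile-up was 14 and 19 fragments in Panc327, 16.5 and 17.6 in BxPC3, and 20 and 21 in SUIT2. BxPC3 backgrounds and pile-ups, here and below, are on the caller's scaled count, with a fitted scale of 0.752 and 0.652. That scale was 1.0 in the other libraries, so BxPC3 values do not compare directly with values in fragments. The lists held 27776 to 38335 peaks. Panc327 replicate 1 therefore had the lowest background and the shortest list. Whether the libraries of a line stem from separate cultures is not in the labels, so the spreads given here may be technical.

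H3K27ac covered the TFAP2A locus widely in all 3 lines. Peaks covered 17.7 and 31.4 kb of the window in Panc327 replicates 1 and 2, 19.0 and 20.3 kb in BxPC3, and 21.5 and 22.0 kb in SUIT2. The Panc327 libraries stood at the lowest and the highest of the 6 values and so enclosed both other lines. The means were 24.5 ± 9.68 kb in Panc327, 19.6 ± 0.98 kb in BxPC3 and 21.7 ± 0.312 kb in SUIT2 (SD, n = 2). Panc327 exceeded BxPC3 by 4.88 ± 6.88 kb and SUIT2 by 2.79 ± 6.85 kb (SE), less than the spread of its own pair. BxPC3 minus SUIT2 was -2.09 ± 0.727 kb, and those libraries did not overlap.

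Few fixed tiles of the genome were covered as densely as the TFAP2A window. With each chromosome cut into 80 kb tiles, 5 tiles were covered at least as much as the TFAP2A window in Panc327 replicate 2, of 12007 tiles with a peak, and 109 of 11790 in replicate 1. In BxPC3 there were 98 of 14084 and 103 of 14916 such tiles, and in SUIT2 236 of 13203 and 261 of 13439. The median tile with a peak was covered over 1.79 to 3.02 kb. The window was placed at a locus chosen for its peaks, whereas fixed tile borders can split a domain. These counts are therefore a description.

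**Figure D1:**
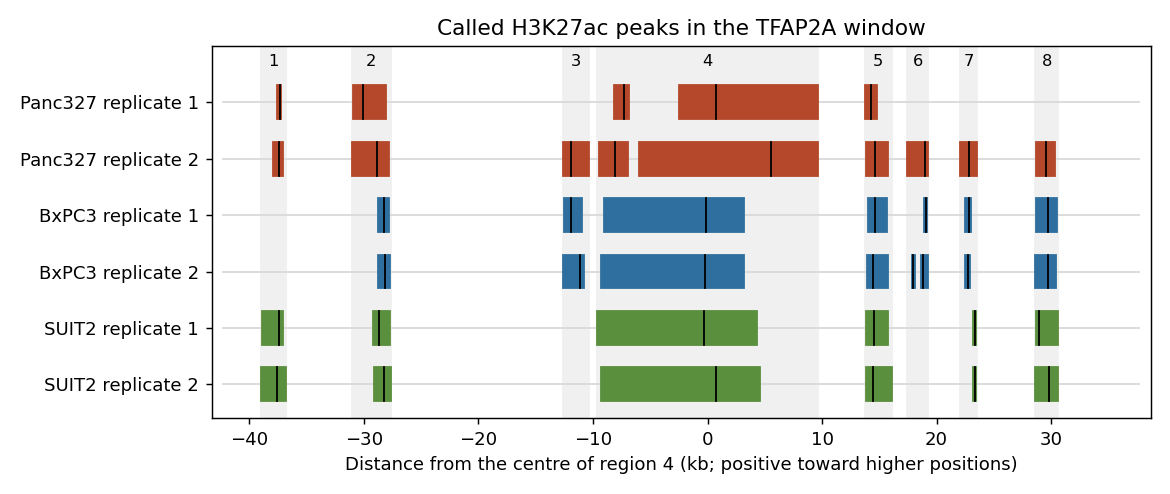
Called H3K27ac peaks of the TFAP2A window in the 6 libraries (rows), by distance in kb from the centre of region 4. Boxes are peaks, black lines their summits, grey bands the merged regions 1 to 8. The region 4 domain runs 5.0 kb farther toward higher positions in both Panc327 libraries than in any BxPC3 or SUIT2 library.

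Merging the peaks that share at least 1 bp gave 8 regions in the TFAP2A window, numbered here from low to high positions, and all 8 were marked, meaning called in both libraries, in at least 1 line. Regions 2, 4 and 5 were called in all 6 libraries, 3 of 8, where 21.6% of all 58994 merged regions were. Panc327 marked 4 of the 8, against 33.7% of all regions, BxPC3 marked 7, against 49.7%, and SUIT2 marked 6, against 45.6%. Since the locus was chosen for its peaks, nothing is read from those shares. Without Panc327 replicate 1, the count for Panc327 was 8.

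The broad domain, region 4, lay on chromosome 6 from 10402644 to 10421982, 19.3 kb with all libraries merged. Its strongest peak reached a fold over background, the authors' value as are all folds here, of 158 and 39.5 in Panc327, 63.8 and 66.7 in BxPC3, and 79.9 and 73.5 in SUIT2. The pile-ups at those summits were 524 and 185 fragments in Panc327, 188 and 266 in BxPC3 on the scaled count, and 342 and 338 in SUIT2. Folds and pile-ups depend on the depth and the enrichment of a library, so levels are compared by rank within each list. Within Panc327, replicate 1 had the lower genome-wide background, 1.46 against 2.85 fragments, and yet the higher fold and pile-up here. Why the pair differed was not tested.

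By −log10 q the domain stood at percentiles 98.3 and 99.0 of the Panc327 lists, 95.5 and 96.0 of the BxPC3 lists, and 86.4 and 84.5 of the SUIT2 lists. The lines did not overlap in this rank, with Panc327 highest and SUIT2 lowest. Ranked by fold instead, Panc327 replicate 1 and BxPC3 replicate 1 both stood at 97.7, so that Panc327 and BxPC3 were not separated. In each of the 6 lists it was the strongest peak of the window. Its share of the covered bases of the window was 75.9 and 58.1% in Panc327, 64.5 and 61.5% in BxPC3, and 65.0 and 63.2% in SUIT2.

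Ranked by width, the domain's widest peak was 12.1 and 15.7 kb in Panc327, ranks 2 and 3 of those lists. The BxPC3 peak was 12.2 and 12.5 kb, ranks 19 and 27, and the SUIT2 peak 14.0 and 13.9 kb, ranks 132 and 152. The widths overlapped between lines and the ranks did not, with the domain nearest to the top of the list in Panc327. A width rank depends on the other widths of its list. The median peak was 1008 and 1292 bp wide in Panc327, 1070 and 1030 bp in BxPC3, and 1504 and 1481 bp in SUIT2. In Panc327 replicate 1 the peak of rank 2 was the narrowest of the 6.

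The lines also differed in where the domain ended on one side. At the higher end, which is the upstream side of TFAP2A, the domain reached 10421927 and 10421982 in Panc327, 10415457 and 10415499 in BxPC3, and 10416631 and 10416926 in SUIT2. Both Panc327 libraries thus ran at least 5.0 kb past all 4 others, and the ends of that pair were 55 bp apart. Of the 12721 regions called in all 6 libraries, 3 ran as far past the others in both Panc327 libraries at either end, this one included. A distance of at least 3 kb, chosen after these values were seen, was reached by 0.149% of such regions in Panc327, 0.126% in BxPC3 and 1.38% in SUIT2. The domain's end was part of what chose this locus, so this rank is a description.

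**Figure D2:**
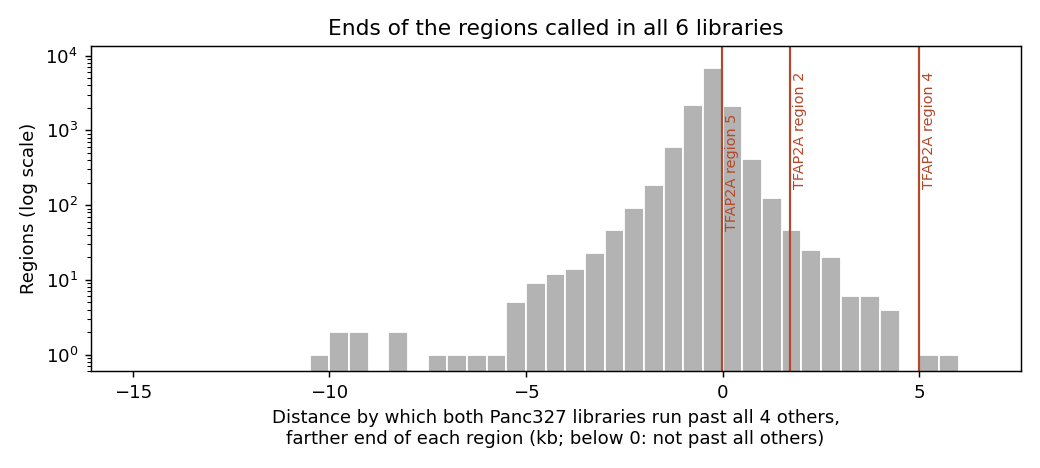
Number of regions called in all 6 libraries (log axis) by the distance in kb that both Panc327 libraries run past all 4 others, at the farther end of each region. Vertical lines mark TFAP2A regions 5, 2 and 4, of which region 4 stands at 5.0 kb, and 2 regions below and 1 above the plotted range are not drawn.

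At the lower end, toward the body of the gene, the lines overlapped. The domain began at 10404116 and 10402804 in Panc327, 10403231 and 10402988 in BxPC3, and 10402644 and 10403041 in SUIT2. It was a single peak in all 4 BxPC3 and SUIT2 libraries, whereas both Panc327 libraries called it as 2 peaks. The break between them ran from 10405442 to 10409837 in Panc327 replicate 1, 4.39 kb, and from 10405361 to 10406322 in replicate 2, 0.96 kb. Together, 5.36 kb of the domain were called in all BxPC3 and SUIT2 libraries and missed by at least 1 Panc327 library, mostly by replicate 1 alone. Bases called in all 6 libraries came to 6.87 kb.

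Summits within the domain fell at 10413015 and 10417885 in Panc327, 10412158 and 10412085 in BxPC3, and 10412004 and 10413012 in SUIT2. Those of Panc327 were 4870 bp apart, those of BxPC3 73 bp and those of SUIT2 1008 bp. The Panc327 replicate 2 summit lay in the stretch that no BxPC3 or SUIT2 library called, while that of replicate 1 lay with the other lines.

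Region 2, from 10381250 to 10384657 on the downstream side of the gene, was likewise called in every library and was broader in Panc327. It covered 2.86 and 3.27 kb in Panc327, 0.911 and 1.04 kb in BxPC3, and 1.51 and 1.44 kb in SUIT2. Its percentiles by −log10 q were 75.2 and 79.6 in Panc327, 38.0 and 51.0 in BxPC3, and 56.8 and 59.2 in SUIT2. The lines did not overlap in either measure, with Panc327 highest.

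At its lower end region 2 ran 1.71 kb farther in both Panc327 libraries than in all others, and 88 of the 12721 shared regions ran at least as far at either end. The Panc327 summits, at 10382190 and 10383428, lay below the first called base of region 2 in both BxPC3 libraries, 10383549 and 10383509. Both Panc327 summits were therefore at bases with no called peak in BxPC3. They were 1238 bp apart, and that of replicate 2 lay just below the BxPC3 starts.

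Region 5, from 10426076 to 10428405 beyond the upstream end of the domain, had the closest summits of the shared regions. They fell within 361 bp over all 6 libraries. Widths were 1.06 and 1.89 kb in Panc327, 1.66 and 1.76 kb in BxPC3, and 1.98 and 2.27 kb in SUIT2. Its percentiles were 75.8 and 94.4 in Panc327, 67.0 and 72.9 in BxPC3, and 62.2 and 63.9 in SUIT2, highest in Panc327 and lowest in SUIT2 with no overlap. Ranked by fold they were 75.8 and 93.6 in Panc327, 65.6 and 75.8 in BxPC3, and 64.7 and 65.7 in SUIT2, and neither neighbouring pair of lines was separated.

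**Figure D3:**
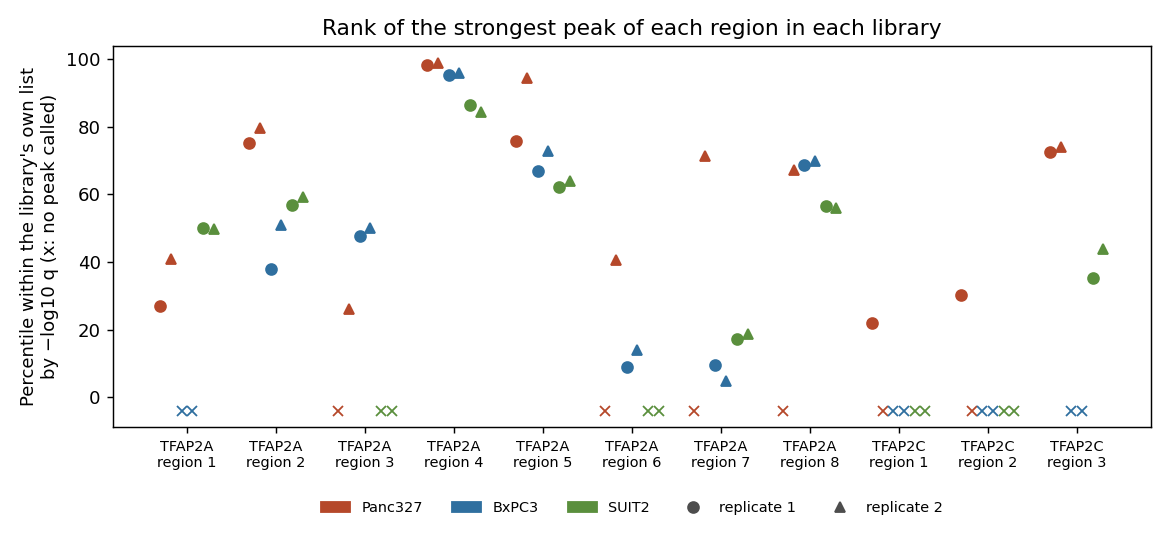
Percentile of the strongest peak of each region by −log10 q within its library's own list (vertical axis) for the 8 TFAP2A and 3 TFAP2C regions. Circles are replicate 1, triangles replicate 2, crosses libraries with no called peak, and TFAP2A region 4 is the highest of its window in all 6 libraries.

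The other 5 TFAP2A regions were missing from 1 or more libraries. Region 1, from 10373360 to 10375512, was marked in Panc327 and SUIT2 and called in neither BxPC3 library. It was narrow in Panc327, 347 and 804 bp, and broader in SUIT2, 1869 and 2153 bp. The pile-ups at its summits were 35 and 44 fragments in Panc327 and 93 and 91 in SUIT2. Over all merged regions, 7.16% were marked in Panc327 and unmarked in BxPC3, 15.4% were marked in SUIT2 and unmarked in BxPC3, and 1.17% had both patterns at once.

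Regions 3 and 6 showed the reverse of that, marked in BxPC3 and called in no SUIT2 library. Over all merged regions 20.2% had this pattern. Panc327 called both regions in replicate 2 alone. Region 3, from 10399704 to 10401996, stood at percentile 26.2 in Panc327 replicate 2, against 47.6 and 50.1 in BxPC3. Region 6, from 10429775 to 10431604, stood at 40.5 in Panc327 replicate 2, against 8.84 and 13.8 in BxPC3. BxPC3 replicate 2 called 2 peaks there, and 13.8 is the stronger. The other, at 3.71, was the one that overlapped the replicate 1 peak. By fold the region 6 percentiles were 17.2 in Panc327 replicate 2, where the local background was 2.94 times the genome-wide level, and 15.6 and 13.1 in BxPC3. The BxPC3 calls were thus mid-ranked at region 3 and weak at region 6 by both measures. Panc327 replicate 2 ranked higher at region 6 by both, by a wide margin by −log10 q and a small one by fold.

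Regions 7 and 8 were called in all libraries except Panc327 replicate 1, a pattern that 1.94% of all merged regions had. Region 8, from 10440940 to 10442929, was 1613 bp wide in Panc327 replicate 2, 1831 and 1828 bp in BxPC3, and 1912 and 1962 bp in SUIT2. Its percentiles were 67.3 in Panc327 replicate 2, 68.7 and 70.0 in BxPC3, and 56.6 and 56.1 in SUIT2. Its width was thus similar wherever it was called. Its summits spread over 817 bp, the distance between the SUIT2 summits at 10441293 and 10442110.

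Region 7, from 10434372 to 10435825, was 1454 bp wide in Panc327 replicate 2, at percentile 71.4. It was far weaker elsewhere, at percentiles 9.44 and 4.62 in BxPC3 and 17.3 and 18.6 in SUIT2, with widths of 248 to 504 bp. The BxPC3 and SUIT2 peaks of region 7 did not overlap each other and were joined by the broader Panc327 peak.

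The gap in Panc327 replicate 1 at regions 7 and 8 was set beside other peaks of replicate 2. Of the 5850 peaks of Panc327 replicate 2 between percentiles 60 and 80, 6.68% had no replicate 1 call in their merged region. Over all merged regions of replicate 2 the share was 27.1%. The percentile limits enclose the replicate 2 percentiles of regions 7 and 8 themselves, so these shares are a description. The local background of the replicate 2 peaks there was 1.51 and 1.58 times the genome-wide level. Its part in the missing calls was not tested.

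The local background around TFAP2A also differed between the lines. Its median over peaks within 1 Mb of the window was 1.46 and 1.47 times the level genome-wide in Panc327, 1.02 and 1.00 in BxPC3, and 1.00 in both SUIT2 libraries. The median of all peaks was 1.26 and 1.34 in Panc327, 1.23 and 1.08 in BxPC3, and 1.08 and 1.00 in SUIT2. The median over chromosome 6 was 1.29 and 1.44 in Panc327, 1.18 and 1.00 in BxPC3, and 1.05 and 1.00 in SUIT2. In Panc327 replicate 2 the whole chromosome thus stood at about the level near the window. Near the window the smallest ratio was 1.00 in every BxPC3 and SUIT2 library. In SUIT2 replicate 1 the largest was 1.00 too. A median of 1.00 there may thus be a floor rather than a measured level. The part of background in the farther upstream end of the Panc327 domain was not tested. In bulk cultures, fewer cells with the mark and less of the mark per cell cannot be told apart.

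H3K27ac at TFAP2C was narrow by comparison and absent from the BxPC3 lists. Peaks covered 4.53 and 2.56 kb of the TFAP2C window in Panc327, 0 kb in both BxPC3 libraries, and 1.01 and 0.946 kb in SUIT2. The lines did not overlap. Means were 3.54 ± 1.39 kb in Panc327 and 0.978 ± 0.0453 kb in SUIT2 (SD, n = 2), a difference of 2.56 ± 0.986 kb (SE).

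**Figure D4:**
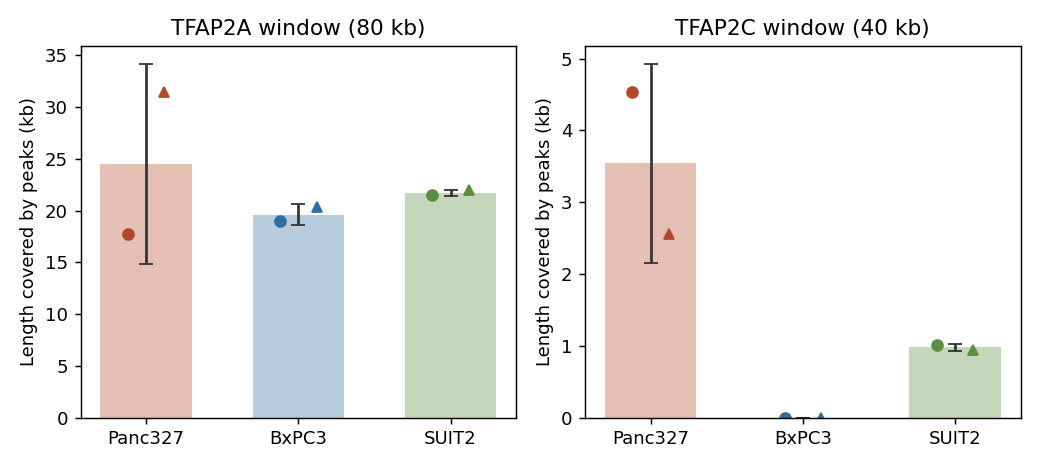
Length in kb covered by called peaks in the TFAP2A window (left) and the TFAP2C window (right). Circles are replicate 1, triangles replicate 2, bars means and error bars SDs of 2 libraries. The Panc327 libraries enclose the other lines at TFAP2A and lie above them at TFAP2C, where BxPC3 has no peak.

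The TFAP2C window was not densely covered even in Panc327. Among 40 kb tiles with a peak, 1608 of 15741 were covered at least as much in Panc327 replicate 1 and 6517 of 16556 in replicate 2. In SUIT2 the numbers were 14229 of 17926 and 14878 of 18376, so that most tiles with a peak had more.

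Merged regions of the TFAP2C window numbered 3. Region 3, from 55203316 to 55206008 on chromosome 20, was marked in Panc327 and SUIT2 and called in neither BxPC3 library, the pattern that 1.17% of all merged regions had and for which the locus was chosen. Its fold was 66.8 and 19.7 in Panc327 and 10.8 and 14.6 in SUIT2. The pile-ups were 165 and 85 fragments in Panc327 and 60 and 76 in SUIT2. If a peak must cover 50% of a merged region, SUIT2 marked 0 regions of the window, since its peaks cover less of region 3 than that.

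By −log10 q, region 3 of TFAP2C ranked at percentiles 72.6 and 74.0 in Panc327 and 35.2 and 43.9 in SUIT2. It was 2618 and 2556 bp wide in Panc327 and 1010 and 946 bp in SUIT2. The median peak was 1008 and 1292 bp wide in the Panc327 lists and 1504 and 1481 bp in the SUIT2 lists. The TFAP2C peak was therefore wider than the median peak in Panc327 and narrower than it in SUIT2.

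The summits of region 3 nevertheless fell close together, at 55204621 and 55204785 in Panc327 and 55204633 and 55204735 in SUIT2, within 164 bp over the 4 libraries. The Panc327 peaks ran past those of SUIT2 at both ends, by at least 941 bp at the lower end and 524 bp at the higher. They shared a centre and differed in breadth.

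**Figure D5:**
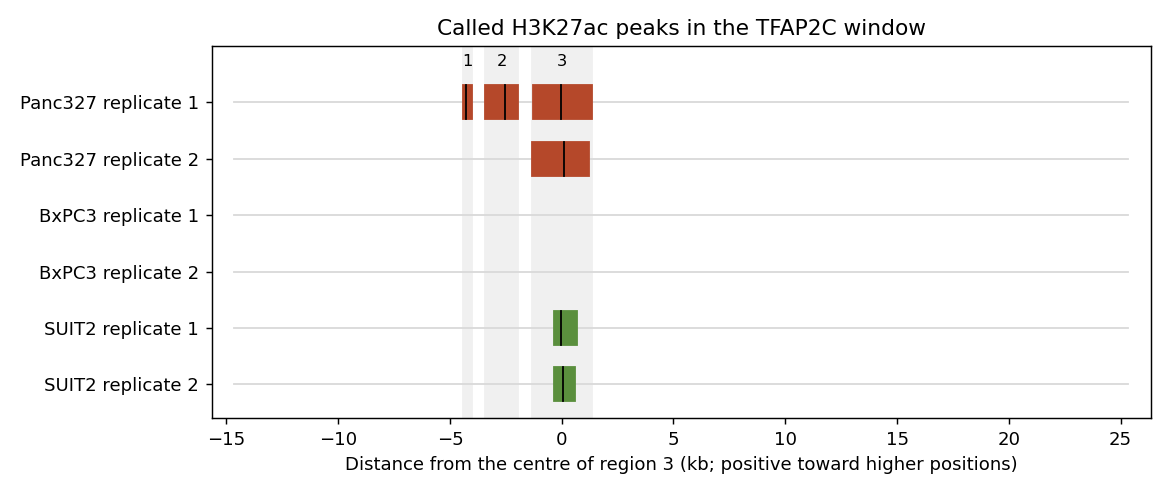
Called H3K27ac peaks of the TFAP2C window in the 6 libraries (rows), by distance in kb from the centre of region 3. Boxes are peaks, black lines their summits and grey bands the merged regions 1 to 3. The Panc327 and SUIT2 summits of region 3 lie within 164 bp of each other, and the BxPC3 rows are empty.

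Regions 1 and 2 of TFAP2C were called in Panc327 replicate 1 alone, as were 25.3% of all merged regions in some single library. Region 1, from 55200249 to 55200656, was 408 bp wide at percentile 21.9, and region 2, from 55201228 to 55202727, was 1500 bp wide at percentile 30.2. Panc327 replicate 2 had neither, so both libraries of the line called region 3 and they differed just below it.

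BxPC3 was not empty around TFAP2C. In the flanks within 1 Mb of the window, Panc327 had 15 and 10 peaks, BxPC3 had 17 and 22, and SUIT2 had 20 and 22. The nearest peak toward lower positions was 146 kb away in both Panc327 libraries, 8.39 and 7.68 kb away in BxPC3, and 145 kb away in both SUIT2 libraries. Those BxPC3 peaks were weak, at percentiles 5.37 and 10.4. BxPC3 thus had the peaks nearest to the window on that side and none inside it. The nearest peaks of its libraries, 55181203 to 55181613 and 55182034 to 55182323, did not overlap. With the window 20 kb wider on each side, BxPC3 had 1 marked region.

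What could be called around TFAP2C depended on the local background. The median local background within 1 Mb of the window in units of the genome-wide level was 1.15 and 1.18 in Panc327, 1.81 and 1.40 in BxPC3, and 1.74 and 1.49 in SUIT2. BxPC3 peaks anywhere with a background within 5% of the BxPC3 medians had a smallest called pile-up of 23.3 and 20.9 on the scaled count. Their smallest fold was 5.29 and 5.09. These are no firm limits for the window, since that background ran between 1.02 and 5.60 over the BxPC3 replicate 1 peaks within 1 Mb and between 1.04 and 3.38 over those of replicate 2. The replicate 1 peak 8.39 kb away was itself called at a fold of 4.98. No background value is given where nothing was called, so the lack of a BxPC3 call does not show that the mark was absent.

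The ends of the windows cut through no peak. Just inside the higher end of the TFAP2A window lay region 8, and just outside it a peak 1.88 kb away in Panc327 replicate 2, 1.47 kb away in both BxPC3 libraries, and 1.16 and 1.46 kb away in SUIT2. In Panc327 replicate 1 the next peak was 67.7 kb away. That outside peak ranked at percentile 15.1 in Panc327 replicate 2, 69.3 and 67.6 in BxPC3, and 50.3 and 55.9 in SUIT2. As at regions 7 and 8, Panc327 replicate 1 was the only library with no call there.

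Set side by side, the genes differed in how the lines ranked. At TFAP2A the strongest peak had its highest percentile by −log10 q in Panc327 and its lowest in SUIT2, with BxPC3 between them. At TFAP2C Panc327 was again highest, SUIT2 followed and BxPC3 had no call. By fold, Panc327 and BxPC3 were not separated at TFAP2A, while Panc327 stayed above SUIT2 at TFAP2C. Peaks show acetylation at the locus and give no level of the RNA or protein.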

How the data were processed

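Lists of called H3K27ac peaks, one per ChIP library, were the data, and no file of the inputs was used. The build was hg19, and the tools named are bcl2fastq 1.8.4, Bowtie 1.1.1 and MACS2 without version or settings, per the submitters' processing notes. In the deposited lists, fold is the authors' ratio of pile-up over local background. The deposited −log10 p and q, from the authors' caller, were at least 10.0 and 8.11. The authors' score column was not used. Summits are deposited offsets from the peak starts. Peaks outside chromosomes 1 to 22 and X were left out, and no pair of lists was identical.

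Pile-up and background were solved from the fold and −log10 p, taking the pseudocount of 1 and the Poisson tail that MACS2 is known to use. The solution returned the deposited −log10 p to within 0.001 for 99.9 to 100% of a list's peaks, with a fitted pile-up scale of 0.752 and 0.652 in BxPC3 replicates 1 and 2. Peaks were merged when they shared at least 1 bp, and bedtools 2.31.1 gave the same 58994 regions. Percentiles are ranks within a list. Steps were tested on simulated data.

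Members, windows and measures were chosen with earlier results of these data known. Named genes are TFAP2A and TFAP2C alone. Every merged region of their windows is given. Alternatives were a −log10 q of at least 20, equal peak numbers, windows 20 kb wider on each side, a 50% overlap, whole peak lengths, the percentile by fold and leaving out each library. Tools were Python 3.11.15 with scipy 1.17.1, pandas 2.3.3, numpy 2.4.6 and matplotlib 3.10.9. Gene positions on hg19 were not used. Promoter windows are from RefSeq on GRCh38.p14.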

Additional observations from a re-analysis of the deposited data

How the results depend on the processing

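Of 114 values under the alternatives, 94 stayed within the spread or the limit set for them, 20 moved and 0 reversed. Some of the 94 could not move. Leaving out 1 library of a line shifts its covered length by no more than the SD of the pair, whatever the values. Whole peak lengths changed nothing because no peak crosses a window end. The tally is therefore no measure of robustness. For the TFAP2A window, BxPC3 covered 18.6 kb at a −log10 q of at least 20 and with equal peak numbers, and 21.3 kb in the wider window, where SUIT2 covered 23.6 kb. In the wider TFAP2C window BxPC3 covered 0.602 kb and had 1 marked region. With a 50% overlap, Panc327 marked 2 and BxPC3 4 regions of the TFAP2A window, and SUIT2 marked 0 regions of the TFAP2C window. Leaving out single libraries gave 4 to 8 Panc327 regions at TFAP2A (8 without Panc327 replicate 1), 1 to 3 at TFAP2C (3 without Panc327 replicate 2), and 5.0 to 5.3 kb for the Panc327 end of the TFAP2A domain, an alternative chosen after the data were seen. With 1 library left, a line needs just that library to mark a region, which raises counts. By fold in place of −log10 q, the strongest TFAP2A peak stood at percentiles 97.7 and 99.6 in Panc327, 97.7 in BxPC3 replicate 1, and 89.6 and 86.6 in SUIT2, so Panc327 and BxPC3 were not separated by that measure. The strongest TFAP2C peak stood at 75.7 and 79.0 in Panc327. The cause was not tested. No paired analysis was possible because no result comes from a test. Depth limits the absent calls: a pile-up under the smallest called one of a list cannot be seen.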
